A study of Mus musculus with 4 samples.

Results

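The inhibitors of cyclin-dependent kinases (CDKs) and the p53 axis were followed across 4 treatments of a kidney cell line. The set was a list of 10 named genes: Cdkn2a, Cdkn2b, Cdkn2c, Cdkn1a, Cdkn1b, Cdkn1c, Trp53, Mdm2, Ccng1 and Rb1. A gene was taken as measured where at least 1 probe set carried its symbol and no other in the array annotation, and where several did, the brightest by mean log2 signal led. By that rule 9 of the 10 genes were measured, of 18193 genes in all, by 16 of 45101 probe sets. Trp53 had no such probe set and its transcript was not analysed here. The list was chosen by pathway around Cdkn2a, which was selected on its signal differences between these 4 arrays, so its values are given as a description and support no claim about the set.

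The cells, mDCT, are a mouse line labelled as immortalised and as derived from distal convoluted tubule, a nephron segment that reabsorbs sodium chloride. In every group they had been transfected with a plasmid for 3xFLAG-tagged human MR (mineralocorticoid receptor), through which aldosterone acts on transcription. At 48 h after transfection the cells received either 5 µM spironolactone, an MR antagonist, or ethanol for 2 h. The groups were then 100 nM aldosterone for 3 h after the antagonist, and ethanol, 1 nM aldosterone or 100 nM aldosterone for 3 h after the ethanol pretreatment. Each was 1 library on 1 Affymetrix 3' expression array, from 250 ng of total RNA. The group that received the antagonist is called spironolactone plus aldosterone below. No untransfected library and none with spironolactone alone was analysed here, and the labels do not say how the line was immortalised.

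With 1 library for each treatment there was no spread between replicates to set a difference against. Every difference is therefore one between 2 libraries, and none was tested. The values are linear MAS5 signals, and differences are in log2 signal, the first-named library minus the second. A filter kept the 11057 genes whose mean log2 signal reached that of the median probe set, which is 55.9 as a signal. All 9 measured genes entered, and all 9 also lay above the 75th percentile, a signal of 420, as did 6936 genes in total. A difference was counted where it reached 1.5-fold. The 3 comparisons with ethanol share 1 ethanol library, and 3 comparisons share the 100 nM library.

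The median signal of the 4 libraries lay between 58.7 and 61.5, and Pearson correlations between libraries over the entered genes lay between 0.991 and 0.992. Of 7 measured markers of the distal convoluted tubule, 3 reached the filter (Pvalb, Trpm6 and Kcnj10). Slc12a3, the sodium chloride cotransporter that defines the segment, had signals of 4.35 with spironolactone plus aldosterone and of 3.93, 17.2 and 12.1 with ethanol, 1 nM and 100 nM aldosterone, all under the filter. Of 6 proximal tubule markers 5 reached it, with the water channel Aqp1 between 2069 and 2479. Markers of collecting duct principal cells (0 of 5), intercalated cells (0 of 4), fibroblasts (0 of 6), endothelium (1 of 5, Kdr) and leukocytes (2 of 5, Cd68 and Csf1r) mostly lay under it. The summed signal of the distal convoluted tubule markers was 235 with spironolactone plus aldosterone and 261, 342 and 323 with ethanol, 1 nM and 100 nM. That of the proximal markers was 2873 with spironolactone plus aldosterone and 2850, 3006 and 3174 with ethanol, 1 nM and 100 nM. That of the leukocyte markers was 983 with spironolactone plus aldosterone and 1171, 1243 and 1230 in the same dose order. Aqp1 makes up most of the proximal sum. Slc5a2, a proximal glucose transporter, had 88.0 with spironolactone plus aldosterone and 45.4, 83.2 and 52.6 with ethanol, 1 nM and 100 nM. It passed 1.5-fold in the same 4 comparisons as Cdkn2a below, in the opposite direction (0.87 for 1 nM against ethanol, -0.66 for 100 nM against 1 nM, and 0.74 and 0.96 for spironolactone plus aldosterone against 100 nM and against ethanol), at signals near the filter. Pvalb, a calcium-binding protein, was higher with 1 nM aldosterone than with ethanol (0.83) and lower with spironolactone plus aldosterone than with 100 nM (-0.67). Kdr, an endothelial growth factor receptor, was higher by 0.73 with 100 nM aldosterone and by 0.70 with spironolactone plus aldosterone than with ethanol. Pvalb and Kdr were dim. Pvalb is part of the distal convoluted tubule sum above, and the 5 endothelial markers together had 121 with ethanol and 151 with 100 nM. The part of these markers in the results below was not tested.

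CDK inhibitors hold cells before DNA replication. The INK4 proteins bind CDK4 and CDK6 and keep them from their D-type cyclins. The CIP/KIP proteins bind cyclin-CDK complexes more widely. Active CDKs phosphorylate the retinoblastoma protein RB1 and so release the E2F transcription factors that switch on replication genes. The p53 protein is degraded through the ubiquitin ligase MDM2, and it activates Cdkn1a, Ccng1 and Mdm2 itself. Cdkn2a joins both arms: one of its products is the INK4 protein p16, and the other, p19ARF in the mouse, binds MDM2 and spares p53. Each product has its own first exon and promoter, and the exons that follow are shared and read in different frames. The locus is silent in most young tissues and is often active in cultured and senescent cells.

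The 2 start regions of Cdkn2a and those of 2 other members are shown because Cdkn2a has 2 separately controlled products, Cdkn2b is its neighbour with another profile, and Cdkn1a is the best known p53 target. The upstream Cdkn2a start is that of p19ARF and the downstream one that of p16. They are the 250 bases before the annotated start in RefSeq's mouse build GRCm38.p6, 5' to 3' on the gene's strand, and 8 of the 10 genes had 11 such promoters in that table. Capitals mark motif matches on either strand: the E2F site (TTTCCCGC or TTTGGCGC), the corticosteroid receptor half-site AGAACA, and the consensus p53 half-site.
Cdkn2a, upstream start, chr4:89294620-89294869, minus strand: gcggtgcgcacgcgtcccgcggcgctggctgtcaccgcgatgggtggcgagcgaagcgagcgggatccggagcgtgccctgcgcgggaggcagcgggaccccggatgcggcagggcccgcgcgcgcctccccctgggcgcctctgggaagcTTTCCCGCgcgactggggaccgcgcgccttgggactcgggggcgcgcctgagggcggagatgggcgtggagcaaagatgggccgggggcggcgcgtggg
Cdkn2a, downstream start, chr4:89282193-89282442, minus strand: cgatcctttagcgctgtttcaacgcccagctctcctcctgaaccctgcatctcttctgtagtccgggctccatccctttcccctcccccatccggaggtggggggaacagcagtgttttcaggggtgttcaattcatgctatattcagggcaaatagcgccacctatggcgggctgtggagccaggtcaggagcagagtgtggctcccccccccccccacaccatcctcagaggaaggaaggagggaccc
Cdkn2b, chr4:89311033-89311282, minus strand: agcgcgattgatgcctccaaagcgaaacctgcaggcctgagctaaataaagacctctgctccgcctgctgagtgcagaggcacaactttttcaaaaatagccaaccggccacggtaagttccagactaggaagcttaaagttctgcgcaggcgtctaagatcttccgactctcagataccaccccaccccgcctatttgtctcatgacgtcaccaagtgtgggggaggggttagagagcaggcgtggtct
Cdkn1a, upstream start, chr17:29090729-29090978, plus strand: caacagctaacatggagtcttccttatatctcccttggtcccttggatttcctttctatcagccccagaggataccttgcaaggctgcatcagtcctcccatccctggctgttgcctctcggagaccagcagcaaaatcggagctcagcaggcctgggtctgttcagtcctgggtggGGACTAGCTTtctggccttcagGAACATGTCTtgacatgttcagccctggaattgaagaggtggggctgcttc

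The upstream Cdkn2a window held an E2F site beginning 99 bases before the start, a motif found in 1.30% of 32851 mouse promoters of this length. The downstream Cdkn2a window and the Cdkn2b window held none of the 3 motifs. Of the 11 promoters of the listed genes, 1 held an E2F site, 1 a corticosteroid receptor half-site (the upstream Cdkn2c promoter, at 222 bases before the start), and 4 a p53 half-site. Of all 32851 promoters 16.1% held the corticosteroid receptor half-site and 7.13% the p53 half-site. The 4 with a p53 half-site belonged to Mdm2, Ccng1, Trp53 and the upstream start of Cdkn1a, where the matches began 73 and 51 bases before the start. These matches are of letters alone. The base content of the 2 Cdkn2a windows differed, with 78.4% G and C upstream and 60.0% downstream.

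Cdkn2a was the member that parted the libraries. Its probe set, 1450140_a_at, had a signal of 2616 with spironolactone plus aldosterone, and of 6210, 2812 and 7295 with ethanol, 1 nM and 100 nM aldosterone. The signal was thus high with ethanol and with the higher dose, and low with the lower dose and with the antagonist before the higher dose, so it did not follow the dose. It was 2.21-fold lower with 1 nM aldosterone than with ethanol (log2 difference -1.14), and 2.59-fold higher with 100 nM than with 1 nM (1.38). With spironolactone plus aldosterone it was 2.79-fold lower than with 100 nM aldosterone alone (-1.48) and 2.37-fold lower than with ethanol (-1.25). Between 100 nM aldosterone and ethanol the difference was 0.23, a 1.17-fold higher signal. In RNA from a whole culture, fewer cells expressing the gene and less of its RNA per cell cannot be told apart.

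Cdkn2a had 1 probe set, so no second one on the array checks these values. Probe sets of its type are designed against more than 1 transcript of a gene, and the files do not say how the signal divides between p16 and p19ARF. With no replicate, the spread of this probe set between like cultures is unknown.

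**Figure D1:**
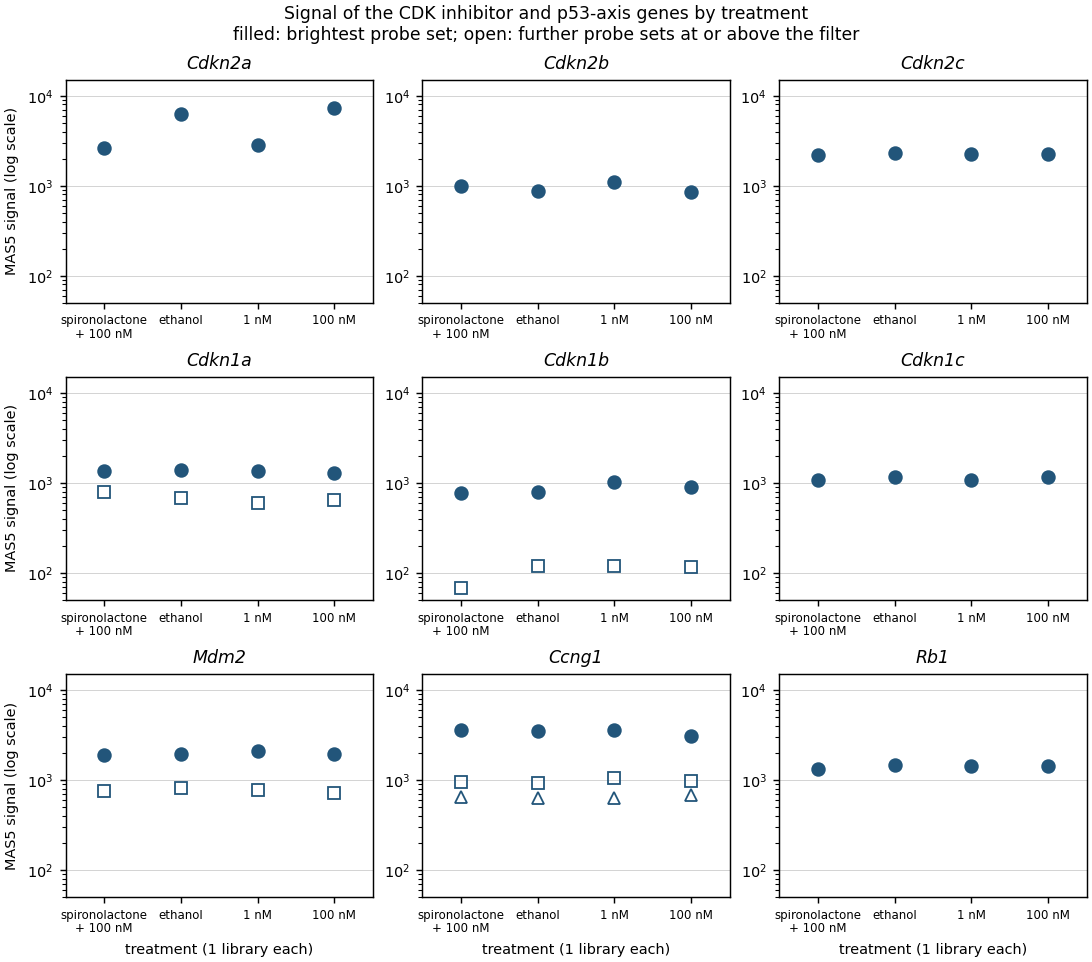
MAS5 signal on a log axis for each of the 9 measured genes in the 4 libraries, with 1 point per library and probe set (filled for the brightest, open for further probe sets at or above the filter of 55.9). Cdkn2a lay at 2616 and 2812 in the libraries with spironolactone plus 100 nM aldosterone and with 1 nM aldosterone, against 6210 and 7295 with ethanol and 100 nM aldosterone, while the brightest probe sets of the other 8 genes stayed within 1.33-fold.

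Set against all genes, the sizes for Cdkn2a stood near the ends of the range. Among the 6936 genes above the 75th percentile of signal it ranked 1 from the lowest for 1 nM aldosterone against ethanol. It ranked 1 from the highest for 100 nM against 1 nM, and 2 from the lowest for spironolactone plus aldosterone against either 100 nM aldosterone or ethanol. Among all 11057 entered genes, which include dimmer and more variable ones, the ranks from that end were 20, 12, 13 and 23. For 100 nM aldosterone against ethanol 9.27% of the brighter genes differed by more. The gene was chosen on these libraries, so the ranks are descriptions.

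In 1 nM aldosterone against ethanol, 0 of 9 members were at least 1.5-fold higher and 1, Cdkn2a, was lower. Of all entered genes 2.61% were higher and 2.07% lower by that much, and 0.634% of the brighter genes passed it in either direction. In 100 nM aldosterone against ethanol 0 of 9 members passed 1.5-fold, where 2.39% of entered genes were higher, 1.72% lower and 0.418% of the brighter genes past it. Between the doses 1 member, Cdkn2a, was higher with 100 nM than with 1 nM, beside 2.04% of entered genes higher, 1.96% lower and 0.461% of the brighter genes past it. With spironolactone plus aldosterone 1 member, again Cdkn2a, was lower than with 100 nM aldosterone, beside 1.83% of entered genes higher, 2.51% lower and 0.461% of the brighter genes past it. Against ethanol Cdkn2a was also the 1 member lower, beside 2.17% higher, 2.03% lower and 0.389% of the brighter genes past it. Nothing is read from these counts for Cdkn2a, which was chosen on these differences, and by the brightest probe set each of the 8 other measured members stayed under 1.5-fold throughout. A second, dimmer probe set of Cdkn1b passed it in 2 comparisons and is given with that gene. The members' median log2 difference lay between -0.09 and -0.01 in the 5 comparisons, and the median of all entered genes lay within 0.01 of 0.

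**Figure D2:**
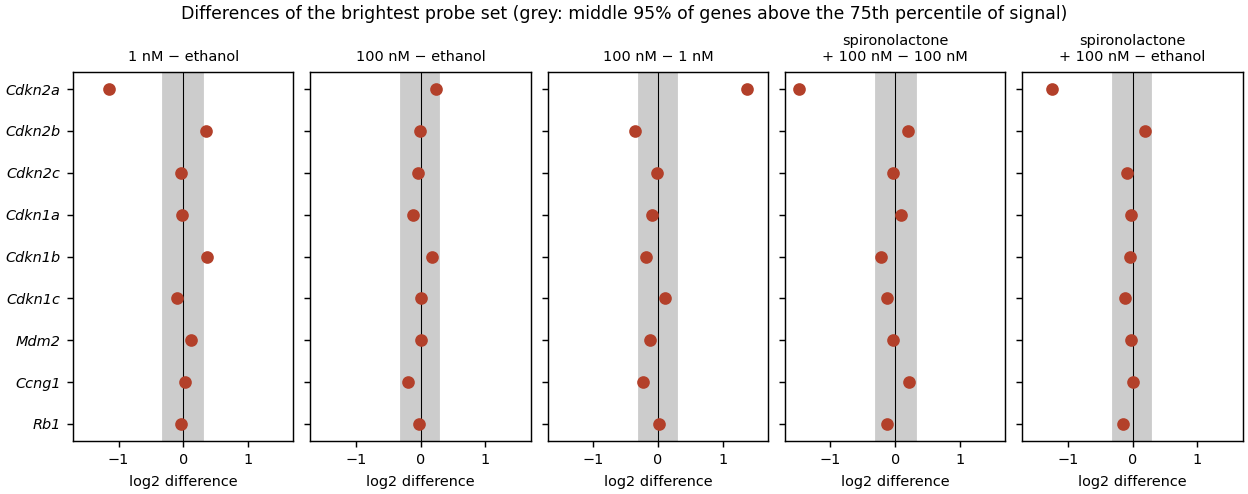
Log2 difference of the brightest probe set of each measured gene in the 5 comparisons (doses are of aldosterone), with the middle 95% of the 6936 genes above the 75th percentile of signal in grey. Cdkn2a lies outside that range at -1.14, 1.38, -1.48 and -1.25 and inside it for 100 nM against ethanol (0.23). For 1 nM against ethanol Cdkn2b and Cdkn1b also lie outside, at 0.35 and 0.37, and for 100 nM against 1 nM Cdkn2b lies outside at -0.36.

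The other INK4 genes did not share the Cdkn2a profile. Cdkn2b, which encodes p15 and lies beside Cdkn2a on chromosome 4, had a signal of 989 with spironolactone plus aldosterone and of 867, 1102 and 859 with ethanol, 1 nM and 100 nM. Its higher libraries were those with 1 nM aldosterone and with the antagonist, the low ones for Cdkn2a, within a total range of 1.28-fold. It was higher by 0.35 with 1 nM aldosterone than with ethanol, a size exceeded by 3.50% of the brighter genes. With spironolactone plus aldosterone it was higher by 0.20 than with 100 nM alone and by 0.19 than with ethanol. Between 100 nM aldosterone and ethanol it differed by -0.01.

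Cdkn2c, which encodes the INK4 protein p18, was the most even member. Its signals were 2202 with spironolactone plus aldosterone and 2329, 2279 and 2259 in the dose series, a range of 1.06-fold. Cdkn2d, the remaining INK4 gene and no member of the list, had 1311 with spironolactone plus aldosterone and 1433, 1494 and 1582 with ethanol, 1 nM and 100 nM. Its difference for the antagonist against 100 nM aldosterone alone was -0.27. Mtap, the metabolic gene on the other side of the locus, stayed between 3349 and 3525 in the 4 libraries. Of the genes beside Cdkn2a that were measured, neither Cdkn2b nor Mtap was low where it was low.

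Among the CIP/KIP genes, Cdkn1a encodes p21, the main p53-induced CDK inhibitor. Its brightest probe set, 1424638_at, had 1350 with spironolactone plus aldosterone and 1373, 1357 and 1270 with ethanol, 1 nM and 100 nM. A second, 1421679_a_at, had 782 with spironolactone plus aldosterone and 676, 591 and 652 in the dose series. The first varied by 1.08-fold and the second by 1.32-fold, and they disagreed on the sign of the difference between spironolactone plus aldosterone and ethanol (-0.02 and 0.21). Both were higher with spironolactone plus aldosterone than with 100 nM alone, by 0.09 and 0.26, and both were lower with 100 nM than with ethanol, by sizes under 0.12.

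Cdkn1b encodes p27, which gathers in resting cells. Its brightest probe set, 1434045_at, had 776 with spironolactone plus aldosterone and 799, 1031 and 905 with ethanol, 1 nM and 100 nM. The 1 nM signal was higher by 0.37 than that with ethanol, the widest difference in that comparison after Cdkn2a, and 2.87% of the brighter genes differed by more. A dim second probe set, 1419497_at, did not share it: its difference for 1 nM against ethanol was 0.03. That second probe set had 68.5 with spironolactone plus aldosterone and 118, 120 and 116 in the dose series. Spironolactone plus aldosterone was thus the low library there, 1.69-fold under 100 nM aldosterone and 1.72-fold under ethanol, where the brightest probe set differed by -0.22 and -0.04. The dim value lies near the filter.

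Cdkn1c encodes p57, an imprinted inhibitor of the same family. Its signals were 1069 with spironolactone plus aldosterone and 1158, 1082 and 1164 with ethanol, 1 nM and 100 nM. The order placed ethanol and 100 nM above the others, as for Cdkn2a, but the whole range was 1.09-fold. Differences of that size are common: 42.0% of the brighter genes differed by more between 1 nM aldosterone and ethanol.

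In the p53 arm, Mdm2 encodes the ligase that marks p53 for degradation. Its brightest probe set, 1423605_a_at, had 1900 with spironolactone plus aldosterone and 1936, 2101 and 1935 with ethanol, 1 nM and 100 nM, a range of 1.11-fold. A second, 1427718_a_at, had 748 with spironolactone plus aldosterone and 821, 780 and 709 in the dose series. For 100 nM against ethanol they gave -0.00 and -0.21, and for 1 nM against ethanol 0.12 and -0.07, so they did not share a direction for the lower dose. A further probe set, 1457929_at, had signals between 3.00 and 24.3, under the filter, and gives no usable difference.

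Ccng1 encodes cyclin G1, a p53-induced protein that acts on the phosphatase controlling MDM2. Its brightest probe set, 1420827_a_at, had 3533 with spironolactone plus aldosterone and 3510, 3585 and 3060 with ethanol, 1 nM and 100 nM. Here 100 nM aldosterone alone was the low library, by 0.20 under ethanol and by 0.21 under spironolactone plus aldosterone. The other 2 probe sets did not show this: 1450017_at had 941 with spironolactone plus aldosterone and 917, 1035 and 969 in the dose series. The third, 1450016_at, had 642 with spironolactone plus aldosterone and 625, 623 and 674 in that order. For 100 nM against ethanol these 2 differed by 0.08 and 0.11, opposite in sign to the brightest.

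Rb1 encodes the retinoblastoma protein, the substrate through which the inhibitors act. Its brightest probe set, 1417850_at, had 1309 with spironolactone plus aldosterone and 1454, 1416 and 1432 with ethanol, 1 nM and 100 nM. The antagonist library was lowest, by 0.15 under ethanol and 0.13 under 100 nM aldosterone, sizes exceeded by 21.6% and 30.2% of the brighter genes. A second probe set, 1444400_at, had signals between 18.5 and 48.1, under the filter. Rb1 thus had 1 usable probe set. The 4 members with more than 1 at or above the filter, Cdkn1a, Cdkn1b, Mdm2 and Ccng1, each had probe sets that disagreed in sign in at least 1 comparison.

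The genes whose profile over the 4 libraries lay nearest to that of Cdkn2a were sought among non-members above the 75th percentile of signal. Likeness was the root mean square difference between log2 profiles centred on their means. The nearest 5 were Cenpb, which encodes a centromere DNA-binding protein (0.20), Marf1, a regulator of meiosis in oocytes (0.25), the histone chaperone gene Hira (0.33), the mitochondrial membrane protein gene Tmem14c (0.34) and Pithd1 (0.35). Cenpb had 308 with spironolactone plus aldosterone and 579, 310 and 603 with ethanol, 1 nM and 100 nM. Marf1 had 359 with spironolactone plus aldosterone and 612, 332 and 639 in the dose series. In each of these 5 genes both the 1 nM library and the antagonist library were lower than the other 2, by less than for Cdkn2a.

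The next brightest probe sets, where they reached the filter, did not bear this out. The next brightest probe set of Marf1 had 154 with spironolactone plus aldosterone and 199, 156 and 133 with ethanol, 1 nM and 100 nM, so that its 100 nM library was lowest. That of Hira likewise had its lowest signal with 100 nM aldosterone, 136, against 141 with spironolactone plus aldosterone. That of Pithd1 had 74.8 with spironolactone plus aldosterone and 52.7, 53.2 and 116 in the dose series, and that of Cenpb was under the filter. Tmem14c had 1 probe set. The order of the 4 libraries in the brightest probe set was thus not that of the next brightest in Marf1, Hira or Pithd1.

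**Figure D3:**
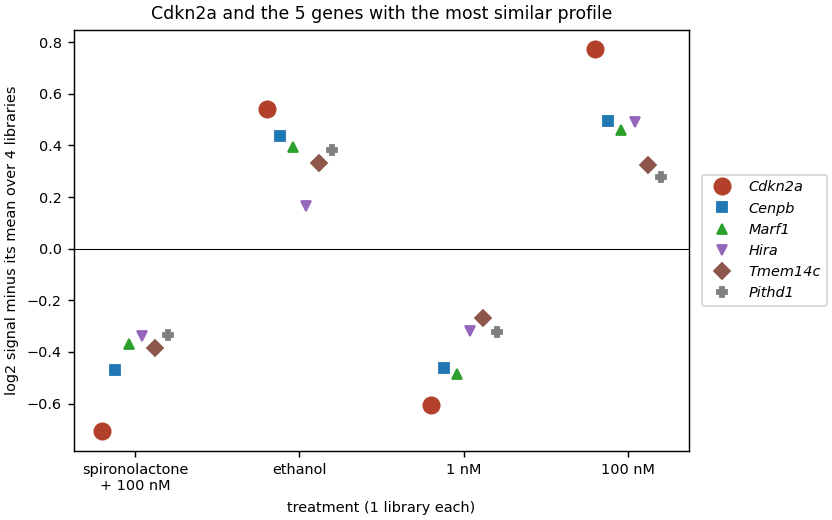
Log2 signal of Cdkn2a and of the 5 genes with the nearest profiles, each minus its own mean over the 4 libraries (doses are of aldosterone), 1 point per gene and library. All 6 genes lie under 0 with spironolactone plus 100 nM aldosterone and with 1 nM aldosterone, and over 0 with ethanol and 100 nM aldosterone, with Cdkn2a farthest from 0 in each library.

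Other genes of the pathway were read from lists by their brightest probe set and described by counts, with no test. Of 32 p53 targets 28 entered. For 1 nM aldosterone against ethanol 0 were 1.5-fold higher by the brightest probe set, with Fas highest at 0.51. In that comparison 2 were lower: Dcxr, a carbonyl reductase (-0.71), and Gtse1, a mitotic protein that binds p53 (-0.59). Of all entered genes 2.61% were higher and 2.07% lower by 1.5-fold there. The second probe set of Btg2 did pass it, higher by 0.66 where its brightest differed by -0.06. The median of the 28 targets was -0.06, beside -0.01 for all entered genes. For 100 nM against ethanol 1 was higher, the death receptor gene Fas (0.70), with Gtse1 lowest at -0.44, and for spironolactone plus aldosterone against 100 nM 1 was lower, again Fas (-0.63), with Pidd1 highest at 0.45. Fas lay near the filter, with 49.3 with spironolactone plus aldosterone and 47.2, 67.2 and 76.5 with ethanol, 1 nM and 100 nM. Between the doses 1 was higher with 100 nM, Dcxr (1.10). Against ethanol, spironolactone plus aldosterone had 1 target lower, Sesn2, a stress-induced regulator of mTORC1 (-0.65), but its second probe set differed by 0.20. The second probe set of Tnfrsf10b was lower with spironolactone plus aldosterone than with 100 nM (-0.61), where its brightest differed by 0.30. By the brightest probe set, the direct targets in the member list, Cdkn1a, Mdm2 and Ccng1, were 0 of 3 past 1.5-fold in each comparison. Over the comparisons 1.83 to 2.61% of all entered genes were higher and 1.72 to 2.51% lower by that much, so 0 of 3 is near that share.

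By the brightest probe set, regulators and kin of p53 gave 0 of 19 entered genes past 1.5-fold in all 5 comparisons. That is near the shares of all entered genes (1.83 to 2.61% higher and 1.72 to 2.51% lower). Second probe sets did pass it, that of Pml for 1 nM against ethanol (-0.67) and that of Ppp1r13l for spironolactone plus aldosterone against ethanol (0.91). For 100 nM aldosterone against ethanol 2 of 19 differences were above 0, and the median was -0.12, beside -0.00 for all entered genes. The lowest was Pml, a nuclear body protein (-0.42), and the highest was Kat5, an acetyltransferase (0.10). With spironolactone plus aldosterone against 100 nM 14 of 19 differences were above 0 and the median was 0.08, with Atm, the kinase that signals DNA breaks to p53, highest at 0.52 and Kat5 lowest at -0.17. Both comparisons use the 100 nM library, on opposite sides of the difference. The second probe set of Pml differed by -0.14 for 100 nM against ethanol, and that of Atm by -0.03 for spironolactone plus aldosterone against 100 nM. For 100 nM against ethanol the second probe sets of this list went both ways, with Hipk2 at 0.55, Atm at 0.09 and Mdm4 at -0.25. The count of 2 of 19 is thus one of the brightest probe sets alone. For 1 nM against ethanol the median was -0.02, with Mdm4, the partner of MDM2, lowest at -0.22 and the kinase gene Hipk2 highest at 0.13.

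Of 21 regulators of the INK4/ARF locus 19 entered. They include the polycomb genes that keep the locus silent. For 1 nM aldosterone against ethanol 1 was 1.5-fold lower, the polycomb gene Pcgf2 (-1.55), with signals of 28.0 with 1 nM aldosterone and 82.0 with ethanol (74.9 with spironolactone plus aldosterone and 81.1 with 100 nM). The 28.0 is under the filter. Of all entered genes 2.61% were higher and 2.07% lower by 1.5-fold in that comparison. Ring1, another polycomb gene, was highest in that comparison and for 100 nM against ethanol (0.24 and 0.27), and Eed was lowest at the higher dose (-0.13). Bmi1, a polycomb repressor of Cdkn2a, had 2380 with spironolactone plus aldosterone and 2074, 2383 and 2289 with ethanol, 1 nM and 100 nM. It was thus higher than with ethanol by 0.20 with 1 nM aldosterone and by 0.20 with spironolactone plus aldosterone, and by 0.14 with 100 nM. Bmi1 falls outside the naming rule and was picked after its values were seen, and its second probe set differed by 0.15, -0.04 and 0.02. Other polycomb genes went either way for 1 nM against ethanol: Ezh2 by -0.02, Eed by -0.08 and Suz12 by 0.12. For spironolactone plus aldosterone against ethanol they differed by -0.10, -0.04 and 0.03. A link of any of them to Cdkn2a was not tested. For spironolactone plus aldosterone against 100 nM the extremes were Cbx8 (0.26) and Cbx7 (-0.36), both polycomb genes. There 0 of 19 passed 1.5-fold, beside 1.83% of all entered genes higher and 2.51% lower.

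The RB family and E2F genes gave 18 entered of 18. For 1 nM aldosterone against ethanol 1 of them passed 1.5-fold, beside 2.61% of all entered genes higher and 2.07% lower. E2f1, which encodes the E2F protein best known for inducing replication genes and p19ARF, was lower with 1 nM aldosterone than with ethanol (-0.61), the 1 gene of the list past 1.5-fold there. It had 394 with spironolactone plus aldosterone and 490, 321 and 453 with ethanol, 1 nM and 100 nM, so the 1 nM library was lowest and ethanol highest. Its second probe set was lower for 1 nM against ethanol by a like size (-0.55), though for spironolactone plus aldosterone against 100 nM it differed by 0.04 where the first differed by -0.20. Lin9, a subunit of the MuvB complex, was highest for 1 nM (0.51) and 100 nM (0.35) against ethanol, and Tfdp2, a partner of the E2F proteins, was lowest for 100 nM (-0.40). E2f4, a repressor E2F, was higher with spironolactone plus aldosterone than with 100 nM alone (0.81) and than with ethanol (1.02). It had 1 probe set near the filter, with 117 with spironolactone plus aldosterone and 67.0 with 100 nM. For spironolactone plus aldosterone against 100 nM E2f6 was lowest (-0.33).

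G1 cyclins, CDKs and factors that turn over CDK inhibitors gave 0 of 21 entered genes past 1.5-fold in all 5 comparisons. Among all entered genes 1.83 to 2.61% were higher and 1.72 to 2.51% lower, so 0 is near that share. For 1 nM aldosterone against ethanol they lay between -0.17 (the phosphatase gene Cdc25a) and 0.28 (Cdkn3, a phosphatase acting on CDK2). For 100 nM against ethanol they lay between -0.21 (Cdc25a) and 0.40 (Zbtb17, a partner of MYC). Cdk6, a target of the INK4 proteins, was highest for spironolactone plus aldosterone against 100 nM (0.41), with 3981 against 2995, and its second probe set was higher by 0.30. Proliferation markers gave 0 of 15 past 1.5-fold, also near the share of all entered genes, and lay between -0.20 and 0.23 over the 5 comparisons. Mki67, a marker of cycling cells, had 4357 with spironolactone plus aldosterone and 4191, 3955 and 3945 with ethanol, 1 nM and 100 nM. It was the highest of these markers for spironolactone plus aldosterone against 100 nM (0.14), with Mcm2 lowest (-0.17). Against ethanol the extremes were Aurkb (0.14) and Plk1 (-0.20) for 1 nM, and Mcm2 (0.23) and Aurka (-0.15) for 100 nM.

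**Figure D4:**
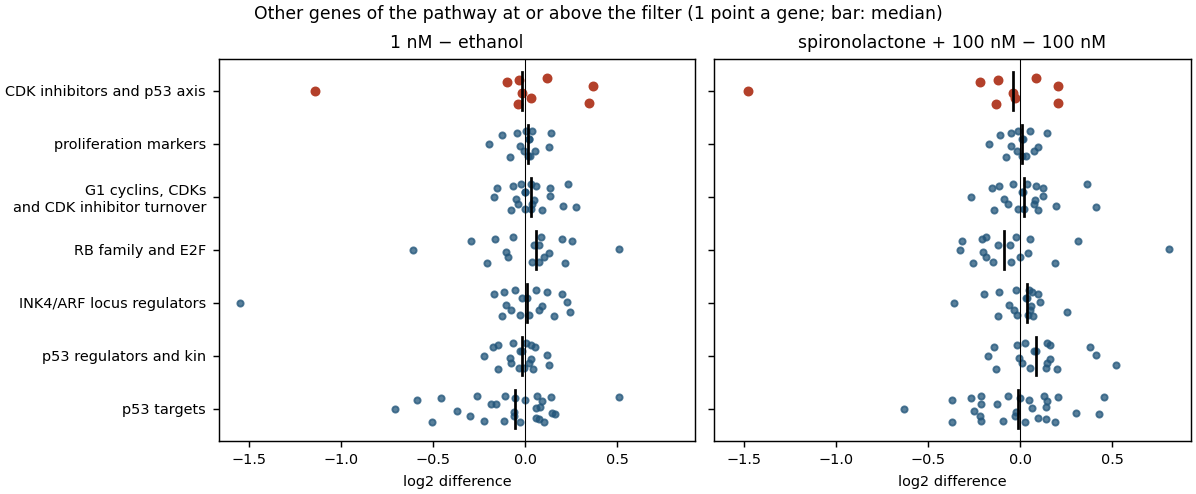
Log2 differences of the entered genes of 6 pathway lists and of the 9 measured members (red), in 2 comparisons (1 nM aldosterone against ethanol, left, and spironolactone plus 100 nM aldosterone against 100 nM alone, right), with 1 point per gene and a bar at each list's median. Cdkn2a stands at -1.14 and -1.48, and the one gene lower than it is Pcgf2 at -1.55 for 1 nM aldosterone.

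The Cdkn2a order also differed from that of Sgk1 and Per1, which are known to answer corticosteroids. Sgk1, the kinase that raises sodium channel activity, had 1424 with spironolactone plus aldosterone and 801, 935 and 1810 with ethanol, 1 nM and 100 nM. Per1, a circadian repressor, had 349 with spironolactone plus aldosterone and 231, 224 and 527 in the dose series. A list of genes known to answer corticosteroids had 9 entered genes. With 100 nM aldosterone 3 of them were 1.5-fold higher than with ethanol (Sgk1, Per1 and Tsc22d3) and 0 lower, beside 2.39% and 1.72% of all entered genes. The median of the 9 was 0.45. With 1 nM against ethanol 0 passed 1.5-fold, beside 2.61% of all entered genes higher and 2.07% lower, and the median was 0.02. With spironolactone plus aldosterone 2 were lower than with 100 nM, Per1 (-0.59) and Tgm2 (-0.80), and 0 were higher. Of all entered genes 2.51% were lower and 1.83% higher there. For 1 nM against ethanol 5 of the 9 differences were above 0, with Fkbp5 highest at 0.52. Errfi1 was lowest for 100 nM against ethanol (-0.11) and highest for spironolactone plus aldosterone against 100 nM (0.10). Ddit4, the lowest of that list for 1 nM against ethanol, shared the low libraries of Cdkn2a. Against ethanol it differed by -0.26 with 1 nM aldosterone and by -0.36 with spironolactone plus aldosterone. In both Sgk1 and Per1 the 100 nM library was highest and the antagonist library lay between it and ethanol, whereas for Cdkn2a the antagonist library was the lowest of the 4.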

How the data were processed

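The authors deposited 1 table of probe set intensities on a linear scale, and the submitters' processing notes name MAS5. The sources used here give no version of it, and detection calls were not analysed here. Trimming the upper and lower 2% of probe sets gave every library a mean of 500.0, which is a shared scale, and no other scaling was added. There were 0 other sample columns. Of 45101 probe sets, 64 array controls were left out, 34945 had 1 gene symbol in the platform annotation, 932 several and 9160 none. Entrez identifiers matched 34741 to RefSeq (GRCm38.p6), and 0 symbols differed. No genome build is named with the intensities, so coordinates are given for promoters alone. Differences are of log2 intensity, with no pseudocount and no test (Python 3.11.15, pandas 2.3.3, numpy 2.4.6, matplotlib 3.10.9). The calling step was run on simulated data with 2-fold changes and little noise. That checks the code alone and does not show how reliable a call between 2 real libraries is. The number of arrays limits the precision. Members and lists were chosen with earlier results of these data known. Named genes are all members, the highest and lowest entered gene of each pathway list in 1 nM and 100 nM aldosterone against ethanol and in spironolactone plus aldosterone against 100 nM, and the 5 genes nearest to Cdkn2a. Sesn2, Btg2, Tnfrsf10b, Ppp1r13l, Mtap, Bmi1, Ezh2, Suz12, Sgk1, Tsc22d3 and Slc12a3 were named beyond that rule, after their values were seen. Alternatives were quantile normalization, a pseudocount of 50, a floor at the filter, the median over probe sets, other filters and a 2-fold threshold.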

Additional observations from a re-analysis of the deposited data

How the results depend on the processing

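The counts of members past the threshold were the same in all 5 comparisons under all 7 alternatives, at 1, 0, 1, 1 and 1 in the order of 1 nM against ethanol, 100 nM against ethanol, 100 nM against 1 nM, and spironolactone plus aldosterone against 100 nM and against ethanol. The gene was Cdkn2a each time. For several alternatives this was fixed in advance. The brightest probe set of every measured member lay above the 75th percentile, so the floor and the other filters left these values unchanged. Cdkn2a had 1 probe set, so the median over probe sets also returned the same values for it. The pseudocount of 50 was small beside its signals of 2616 to 7295, and the folds given above already settled the 2-fold threshold. Only quantile normalization could have changed the result for Cdkn2a. The log2 difference of Cdkn2a ranged from -1.16 to -1.13 for 1 nM against ethanol. For spironolactone plus aldosterone against 100 nM it ranged from -1.48 to -1.46. Of the members' 45 differences, all moved by at most 0.1 under quantile normalization, the pseudocount and the floor. Under the median over probe sets 10 moved by more, the most for Cdkn1b, to -0.49 for spironolactone plus aldosterone against 100 nM and -0.41 against ethanol. The number of all genes past 1.5-fold, 443 to 518 over the comparisons, was 141 to 186 with the pseudocount, 27 to 44 above the 75th percentile, 4744 to 4828 with no filter and 92 to 123 at 2-fold. No paired analysis was possible because each treatment had 1 library, and no library could be left out. With no detection calls, signals near the filter cannot be told from background.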
